A study of Mus musculus with 9 samples.

Results

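Transcripts of 10 genes of arginine and polyamine metabolism were followed in mouse macrophages that carry normal or edited C/EBPδ. The genes were chosen by name, with earlier results of these data known. They are Slc7a2 (arginine uptake), Ass1 (arginine synthesis), Arg1 and Arg2 (arginine hydrolysis), Odc1 (ornithine decarboxylation), Oaz1 and Azin1 (control of that step), Srm and Sms (synthesis of spermidine and spermine) and Sat1 (polyamine acetylation), 10 of the 55487 gene identifiers in each count list. All cells were RAW264.7, an established macrophage-like line of mouse origin, grown without any stimulation. Wild-type cells (CEBPD wild type) were compared with CEBPD KO cells (knock-out) and CEBPD TAD mutant cells (ΔTAD), which lack the transactivation domain of C/EBPδ, with 3 libraries for each genotype. Both edited genotypes came from CRISPR/Cas9 cutting on either side of that domain followed by expansion of single cells. Knock-outs were clones from the same editing in which the deletion shifted the reading frame. The design text speaks of 3 clones picked for sequencing. The study used individual clones of wild-type cells in its assays with LPS, but the labels do not say whether the sequenced wild-type libraries are separate clones. The p-values therefore measure only the spread between these libraries, and effects of the genotype and of clonal expansion cannot be told apart.

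Arginine enters a macrophage through cationic amino acid transporters and is used by nitric oxide synthases and by arginases, which split it into urea and ornithine. Ornithine decarboxylase, encoded by Odc1, turns ornithine into putrescine, and spermidine synthase and spermine synthase add aminopropyl groups taken from decarboxylated S-adenosylmethionine. Antizymes bind ornithine decarboxylase and direct it to the proteasome, antizyme inhibitors bind the antizymes, and the acetyltransferase encoded by Sat1 opens the way back from spermine to putrescine. In macrophages Arg1 is best known as a product of alternative activation, for which C/EBPβ and STAT6 are textbook inducers, and Odc1 is a textbook target of MYC.

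Sequence before the RefSeq start (GRCm38.p6) is shown for 4 of these genes that differ in their response. Of the 10 genes, 5 had an entry (Ass1, Oaz1, Odc1, Sat1 and Sms), while Arg1, Arg2, Azin1, Slc7a2 and Srm had none. The 250 bases before each start were searched on both strands for CCAAT, the letters bound by NF-Y, for TTGCNNAA, a core of C/EBP sites, and for CACGTG, the E box bound by MYC and MAX, none of which overlaps another in the sequences shown. Of 32851 mouse promoters of this length, 33.8% held CCAAT, 9.56% TTGCNNAA and 6.02% CACGTG. Matches are in capitals, and stretches that the GENCODE gene model already counts as exon were cut from the Odc1 window. The stretch of Ass1 lies before its RefSeq start but inside the first exon of its GENCODE model, so it is not shown as promoter.
Odc1 (chr12:17544623-17544793, plus strand): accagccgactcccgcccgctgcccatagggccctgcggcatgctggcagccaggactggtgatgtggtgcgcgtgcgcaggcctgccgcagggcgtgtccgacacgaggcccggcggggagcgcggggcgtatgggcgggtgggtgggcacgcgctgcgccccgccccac
Oaz1 (chr10:80826406-80826655, plus strand): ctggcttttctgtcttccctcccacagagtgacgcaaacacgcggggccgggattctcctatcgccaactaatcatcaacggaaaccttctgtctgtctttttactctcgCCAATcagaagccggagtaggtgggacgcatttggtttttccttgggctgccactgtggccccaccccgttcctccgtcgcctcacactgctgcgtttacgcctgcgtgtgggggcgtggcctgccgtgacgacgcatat
Sms (chrX:157492288-157492537, minus strand, the more upstream of its starts): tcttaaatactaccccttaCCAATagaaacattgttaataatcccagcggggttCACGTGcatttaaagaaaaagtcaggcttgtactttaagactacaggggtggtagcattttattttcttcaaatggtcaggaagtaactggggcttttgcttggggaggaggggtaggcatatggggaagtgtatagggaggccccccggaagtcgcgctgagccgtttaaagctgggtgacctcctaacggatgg
Ass1 (chr2:31470222-31470251, plus strand, the 30 bases around its match): cgcgcccgtcccCACGTGtcccaggttcct
The Odc1 stretch was 77.2% G and C, with 21 CG pairs in 171 bases, and held none of the 3 motifs. Oaz1 had CCAAT starting 140 bases before its start, and Ass1 had CACGTG starting 36 bases before its RefSeq start. The upstream Sms window had both CCAAT and CACGTG, while the window before the other Sms start had none of the 3 motifs. TTGCNNAA was found in none of the windows of the 5 genes. For each of the 3 motifs, a lack of matches says only that its letters are absent from the window. Bases before or after the windows were not searched.

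Each library held 16113306 to 20981829 counts on genes, and 14312 genes passed a filter on low counts. Levels are given in CPM, counts scaled to library size by TMM, and a gene was called when its adjusted p in edgeR was under 0.01. ΔTAD replicate 1 stood apart: it differed from the other ΔTAD libraries by 134.3 and 134.7 in chi-square per gene, where all other pairs within a genotype differed by 1.93 to 3.88. The ribosomal RNA gene CT010467.1 took 11% of its counts and 1.16% of those of ΔTAD replicates 2 and 3. All 8 macrophage markers examined were detected, with summed levels of 2616 to 2764 CPM for wild-type, 3629 to 3980 for knock-out and 6009 to 6163 for ΔTAD libraries. Most of that increase was Lyz2, the macrophage lysozyme, with means of 1167, 2114 and 4192 CPM in that order. The other 7 markers summed to 1517 to 1580, 1622 to 1700 and 1883 to 1919 CPM, and among them Fcgr1 fell in both genotypes (log2 fold change -1.14 and -0.44) and Itgam was called in neither. The T cell, B cell, fibroblast, epithelial and hepatocyte markers had 3 or fewer counts in each library. Granulocyte markers summed to at most 1.38 CPM in any library. The endothelial markers summed to 2.66 to 4.04 CPM for wild-type, 0.665 to 0.844 for knock-out and 0.144 to 0.420 for ΔTAD libraries. The part of these marker levels in the values below was not tested. Cebpd itself was not called in knock-out (log2 fold change -0.26, adjusted p = 0.0850) or in ΔTAD cells (-0.24, adjusted p = 0.0931). The deletion leaves most of this transcript in place, so its level does not check the labels.

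Of the 10 genes, 9 had a count in at least 1 library and 8 passed the filter. In knock-out cells Odc1, Srm, Arg2 and Ass1 fell and Oaz1 rose, 5 of the 8 genes tested, beside 45.2% of all genes tested. In ΔTAD cells the same 5 moved in the same direction, Azin1 also fell and Sat1 also rose, 7 of 8 beside 49.7% of all genes. Sms was called in neither genotype, and Arg1 and Slc7a2 were practically silent in all 9 libraries. Between the edited genotypes, Odc1 and Azin1 were higher in knock-out cells and Srm and Sat1 were lower, 4 of 8 beside 33.0% of all genes. Arg2 and Ass1 passed the filter only through the wild-type libraries, where they are highest, so these counts are not evidence of a shift across all 10 genes. Without Arg2 and Ass1, 3 of 6 genes were called in knock-out, 5 of 6 in ΔTAD and 4 of 6 between the edited genotypes. The median log2 fold change over these 6 was 0.02 in knock-out and -0.15 in ΔTAD cells, beside -0.001 and -0.003 for all genes tested. Both comparisons with wild-type use the same 3 wild-type libraries. No library of the edited genotype overlapped the wild-type libraries for 5 of 8 genes in knock-out cells (1 higher and 4 lower, where 30.0% and 29.7% of all genes were, 59.7% in all). In ΔTAD cells this held for 8 of 8 (2 higher and 6 lower, where 32.4% and 30.7% were, 63.1% in all). Knock-out and ΔTAD libraries did not overlap for 5 of 8 (2 higher and 3 lower, where 23.2% and 29.6% were, 52.8% in all). Arg2 is among the lower genes there, with 0 counts in each knock-out and 1 in each ΔTAD library, and was not called. The filter bears on these counts too. Without Arg2 and Ass1 the libraries did not overlap for 3 of 6 genes in knock-out, 6 of 6 in ΔTAD and 4 of 6 between the edited genotypes. In a bulk sample, fewer cells that express a gene and less RNA per cell cannot be told apart.

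**Figure D1:**
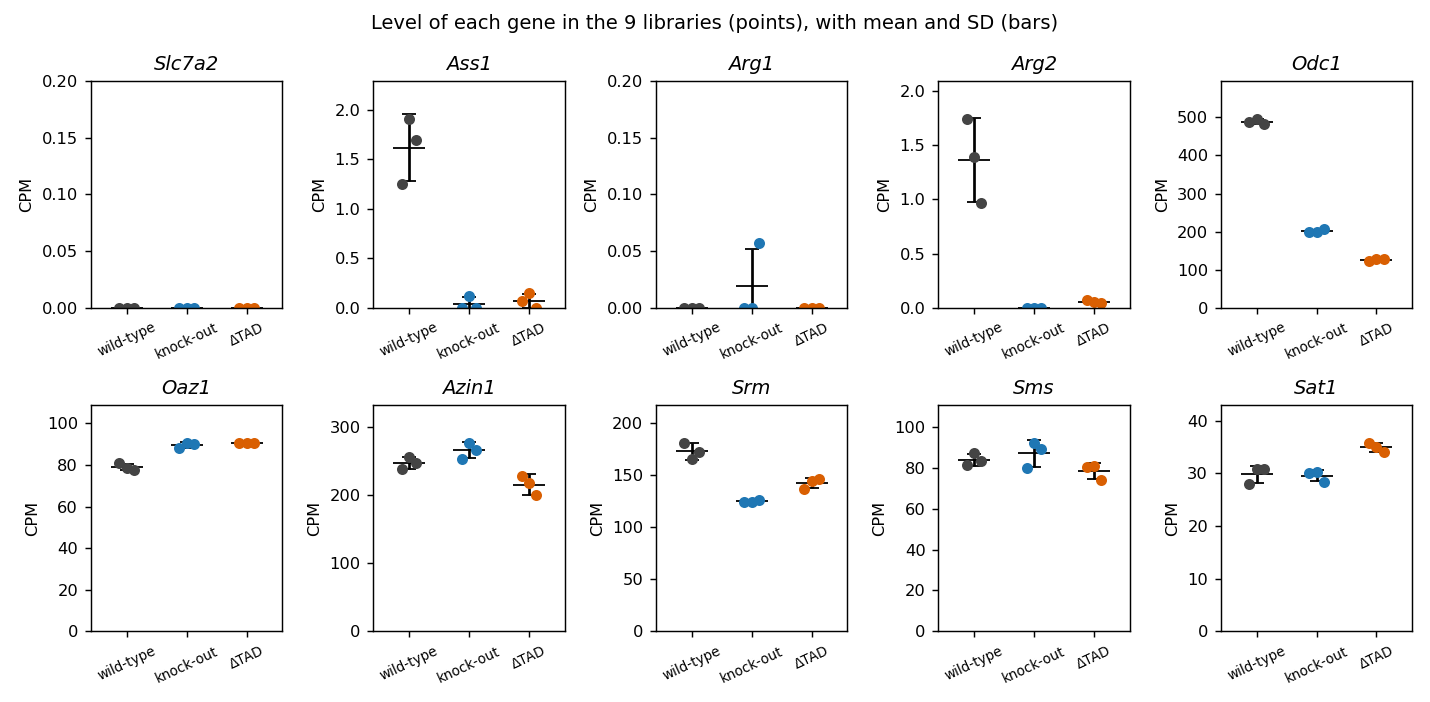
Level of each of the 10 genes in CPM (vertical axes, each from 0) in the 3 libraries of each genotype (points), with the mean (horizontal bar) and SD (error bar) of 3 libraries. Odc1 lies between 483 and 496 CPM in wild-type and between 124 and 128 in ΔTAD libraries, with knock-out in the middle, while Sms spans 74 to 92.3 CPM over all 9 libraries.

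Slc7a2 encodes the cationic transporter that activated macrophages use to take up arginine. It had 0 counts in every library, which allows up to 0.0557 CPM for wild-type, 0.0564 for knock-out and 0.0534 for ΔTAD cells (3 counts over the 3 libraries, counting error only). Its relative Slc7a1, the constitutive arginine transporter, was expressed at 301 ± 2.38 CPM for wild-type, 304 ± 2.18 for knock-out and 295 ± 12.6 for ΔTAD cells (SD, n = 3), and was called in none of the comparisons. Of the 5 other transporters listed, 4 were tested. Slc3a2, the heavy chain shared by several amino acid exchangers, fell in both genotypes (log2 fold change -0.13 and -0.15).

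Ass1 encodes argininosuccinate synthase, which with the lyase Asl rebuilds arginine from citrulline. It lies on chromosome 2 (31470207-31520672, plus strand, GRCm38). Wild-type libraries held 25, 33 and 28 counts, knock-out libraries 0, 2 and 0, and ΔTAD libraries 1, 3 and 0. Every wild-type library was above every edited library, at a low level of 1.62 ± 0.339 CPM (SD, n = 3). The ratio was 42.5-fold for knock-out (95% counting interval 11.4 to 356) and 22.4-fold for ΔTAD (8.44 to 84.1). Both knock-out counts came from replicate 2, without which the knock-out libraries held none and Ass1 was lower by at least 19.5-fold. Without knock-out replicate 1 or 3 the ratio was 27.3 or 28.4, and without ΔTAD replicate 2 or 3 that of ΔTAD was 56.4 or 14.0. Knock-out and ΔTAD were not told apart (adjusted p = 0.612), and with 2 and 4 counts in all a difference between them was not detectable at this depth. Its 20 nearest tested neighbours had median log2 fold changes of 0.05 and 0.09. Of the 50-base stretches of Ass1, 38.6% also occur in its processed pseudogene Gm5424 on chromosome 10, so reads of these 2 genes are partly interchangeable. Gm5424 held 22, 8 and 6 counts in wild-type, 0 in each knock-out library and 1, 0 and 0 in ΔTAD libraries. The pseudogene and the gene summed to 2.26 ± 0.173 CPM for wild-type, 0.0403 ± 0.0698 for knock-out and 0.0947 ± 0.082 for ΔTAD cells. Asl, by contrast, had 34.3 ± 3.04, 33.9 ± 3.51 and 33.2 ± 1.35 CPM and was not called.

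The arginases differed from each other in wild-type cells. Arg1, the cytosolic enzyme, had 0 counts in 8 libraries and 1 count in knock-out replicate 3. Arg2, the mitochondrial enzyme, had 35, 24 and 16 counts in wild-type, 0 in each knock-out library and 1 in each ΔTAD library. The wild-type mean was 1.37 ± 0.389 CPM (SD, n = 3), and no edited library reached a wild-type value. In knock-out cells Arg2 was lower by at least 24.7-fold (against 3 counts over the 3 libraries), and in ΔTAD cells by 26.1-fold (95% counting interval 8.58 to 129). Without knock-out replicate 1 the bound was 15.9-fold, the lowest with 1 library left out. Knock-out and ΔTAD were not told apart by the test (adjusted p = 0.110). The 3 tested genes most like Arg2 over the 9 libraries by Pearson r of log2 CPM were Traf3 (0.998), Bag5 (0.997) and Ccnk (0.995). These r values describe 9 libraries in 3 genotype clusters, and 36 tested genes outside the lists had r values nearly as high. An r does not compare the size of a change. Traf3 went from 119.6 CPM in wild-type to 81.4 in knock-out and 86.3 in ΔTAD cells, a far smaller change than that of Arg2. Traf3, Bag5 and Ccnk all lie on chromosome 12, as Arg2 does (79130777-79156301, plus strand). Of the 50-base stretches of Arg2, 17.1% lie also in Vti1b, which overlaps it on the opposite strand and fell in both genotypes (log2 fold change -0.51 and -0.42). Strand use in the counting is not given in the sources used here, so how reads in that overlap were assigned is not known. Vti1b held 1164, 1033 and 1174 counts in the knock-out libraries, where Arg2 had 0 in each.

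Markers that go with Arg1 in alternatively activated macrophages were also scarce. Of 6 listed, Retnla and Chil3 had no counts, Mrc1 and Pdcd1lg2 had at most 8 in a library, and 2 were tested. Il4ra, the receptor chain for IL-4 and IL-13, rose in ΔTAD cells from 2.08 ± 0.353 to 3.16 ± 0.552 CPM (log2 fold change 0.60, adjusted p = 0.00855) and was not called in knock-out cells (-0.15, adjusted p = 0.564). The lectin gene Clec10a fell in ΔTAD cells, by 0.49 on the log2 scale. It was not called in knock-out cells, though every knock-out library also lay below every wild-type library. Its levels were 6.43 ± 0.135 CPM for wild-type, 4.96 ± 0.455 for knock-out and 4.46 ± 1.12 for ΔTAD cells. Nos2, the inducible nitric oxide synthase that competes with the arginases, had at most 3 counts in any library.

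Odc1 was the most abundant of the 10 genes in wild-type cells per length and showed the largest changes among those with more than 10 CPM. Its values were 488, 496 and 483 CPM for wild-type, 199, 198.5 and 206 for knock-out and 124, 127 and 128 for ΔTAD libraries. The 3 genotypes formed separate, narrow ranges, in the order wild-type, knock-out, ΔTAD. Odc1 was 2.43-fold lower in knock-out cells (log2 fold change -1.28 ± 0.035 SE, adjusted p = 9.38e-20) and 3.87-fold lower in ΔTAD cells (-1.95 ± 0.036, adjusted p = 3.26e-23). The direct comparison placed knock-out 1.59-fold above ΔTAD (0.67 ± 0.0357, adjusted p = 2.02e-13). Without ΔTAD replicate 1 the values were -1.28, -1.96 and 0.68.

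**Figure D2:**
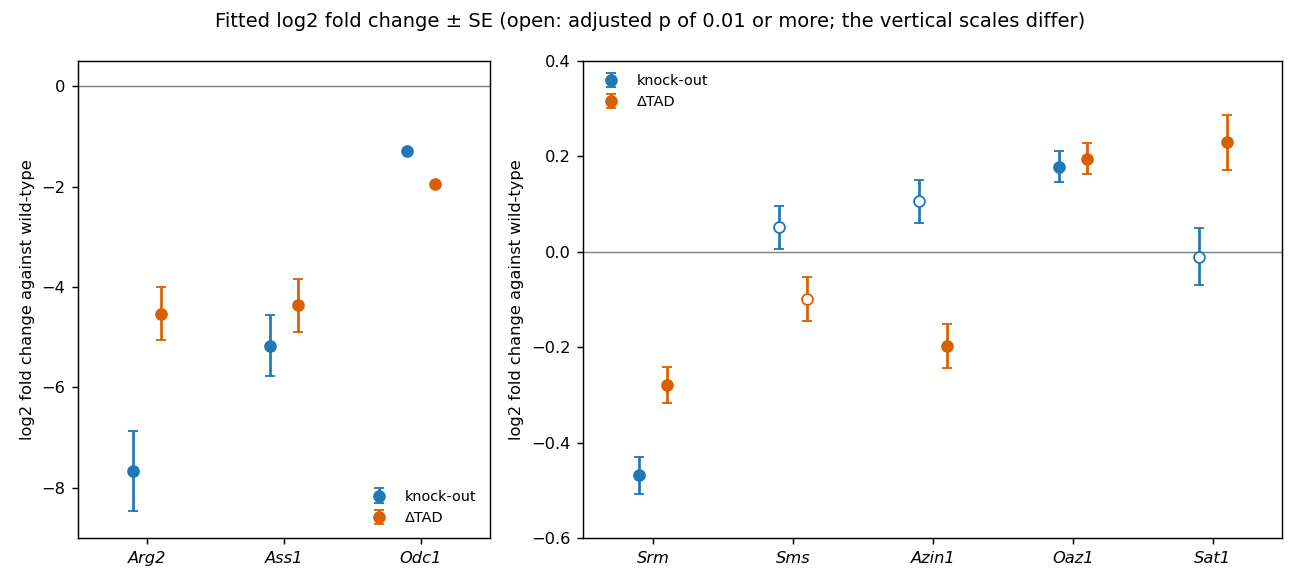
Fitted log2 fold change against wild-type (vertical axis, with SE) of the 8 genes tested in knock-out (blue) and ΔTAD (orange) cells, 3 libraries per genotype, with filled points for adjusted p under 0.01. The scales of the panels differ. Arg2 and Ass1 rest on few counts, and the knock-out value of Arg2 depends on the prior count because that genotype had 0 counts.

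Odc1 lies on chromosome 12 (17544794-17551505, plus strand), where most genes were lower in both edited genotypes. The other 540 tested genes of this chromosome had medians of -0.52 (knock-out) and -0.54 (ΔTAD) on the log2 scale, with 349 and 358 genes called lower. Against each other the edited genotypes differed by a median of -0.01 over these genes. Odc1 lay below the chromosome median by -0.76 and -1.41 on the log2 scale, and was the 31st and the 21st lowest of 541 genes. Of its 20 nearest tested neighbours, spread over 8.15 Mb with medians of -0.63 and -0.66, 1 was lower than Odc1 in each genotype. These were different genes, at -1.30 in knock-out and -2.21 in ΔTAD cells. The one in ΔTAD cells starts 0.0014 Mb after the start of Odc1, within the coordinates of Odc1. The 20 nearest neighbours of Arg2 had medians of -0.36 and -0.44. The part of the chromosome-wide shift in the values of Odc1 and Arg2 was not tested.

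**Figure D3:**
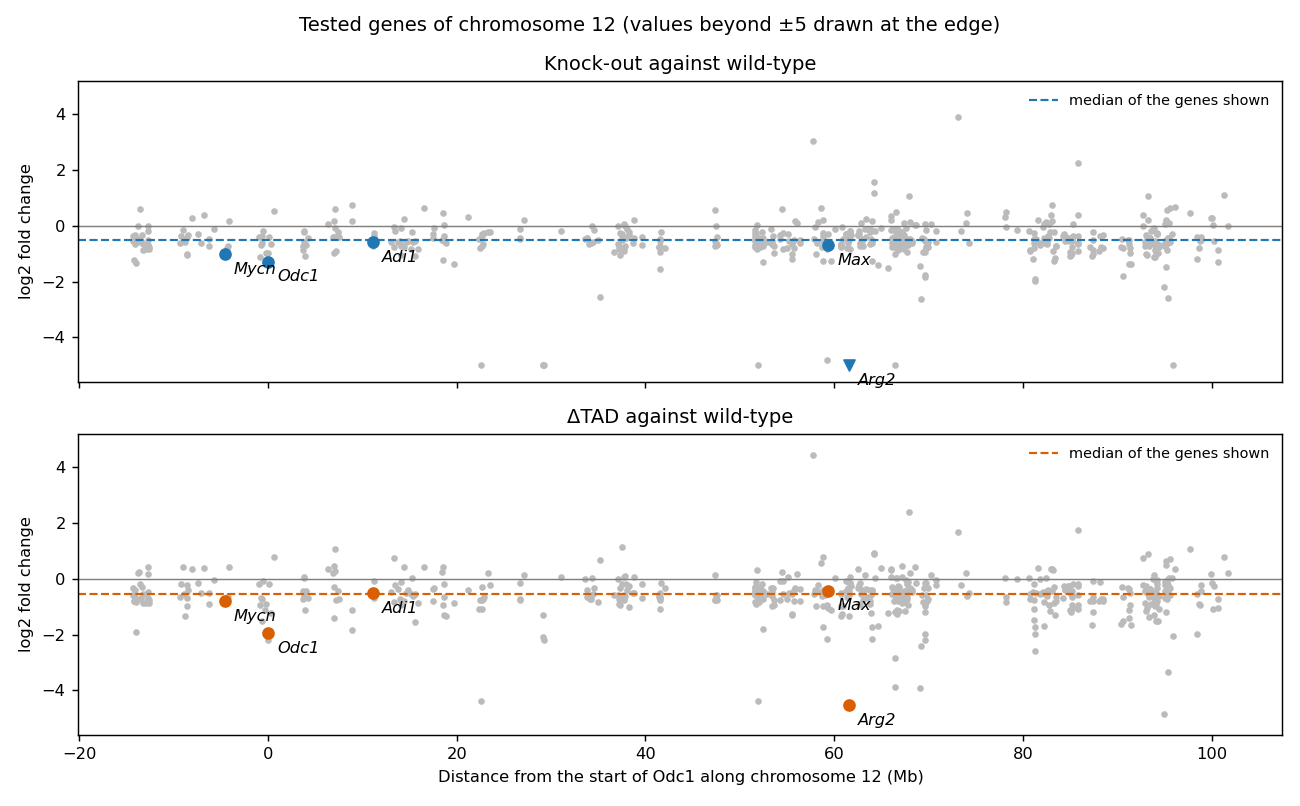
Log2 fold change against wild-type (vertical axis) of 541 tested genes of chromosome 12 by their distance from the start of Odc1 in Mb (horizontal axis), for knock-out (top) and ΔTAD (bottom). Grey points are genes, the dashed line is their median, named genes are coloured and values beyond 5 are drawn at the edge, such as Arg2 in knock-out. The median lies below 0 in both panels, and Odc1 lies lower within it than Mycn, Adi1 and Max.

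Odc1 shares 24.3% of its 50-base stretches with 16 other genes, and the 3 that share most are processed pseudogenes on other chromosomes. Gm17709 on chromosome 8 fell in both genotypes (log2 fold change -1.32 in knock-out, -1.99 in ΔTAD cells), as did Gm9115 on chromosome X (-1.08 and -2.16). Their fold changes were close to those of Odc1 itself, and reads from the shared stretches cannot be told apart. Gm7993 on chromosome 5 was low and not called. Together these 3 copies held 29.7 ± 1.18 CPM for wild-type, 13 ± 0.210 for knock-out and 7.73 ± 0.370 for ΔTAD cells, which is 5.72%, 6.06% and 5.76% of gene and copies combined. The sum of Odc1 and its copies was 519 ± 8.03, 214.2 ± 4.202 and 134 ± 2.29 CPM. The genes most like Odc1 over the 9 libraries, an addition made after its values were seen, were Ctsl (r = 0.999), Nin (0.998) and Car2 (0.997). In all, 41 tested genes outside the lists had r values nearly as high. Ctsl, which encodes the lysosomal protease cathepsin L, went from 586 CPM in wild-type to 261 in knock-out and 169 in ΔTAD cells. Car2, a carbonic anhydrase, went from 155.5 to 7.33 and 1.62 CPM, and Nin lies on chromosome 12 like Odc1.

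Oaz1, the antizyme gene, rose by a small amount in both genotypes. It had 80.9, 78.8 and 77.8 CPM for wild-type, 88.2, 90.8 and 90.0 for knock-out and 90.7, 90.6 and 90.9 for ΔTAD libraries. All 6 edited libraries were above all 3 wild-type libraries. The log2 fold changes were 0.18 ± 0.0324 (adjusted p = 4.58e-05) and 0.20 ± 0.0322 (adjusted p = 1.17e-05). Both calls were lost when libraries were scaled by total count alone (0.16, adjusted p = 0.0192, and 0.11, adjusted p = 0.125). Knock-out and ΔTAD differed by -0.02, with a 95% interval of -0.0827 to 0.0486. The copy Oaz1-ps on chromosome 17 shares 20.1% of the 50-base stretches of Oaz1, and took 14.3%, 14.6% and 15.4% of the counts of gene and copy in the 3 genotypes.

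Azin1, the antizyme inhibitor, moved in ΔTAD cells. Wild-type libraries held 238, 256 and 247 CPM, knock-out libraries 253, 277 and 266, and ΔTAD libraries 228, 218 and 199. Knock-out values overlapped wild-type and ΔTAD values were all below it. Azin1 fell by 0.20 on the log2 scale in ΔTAD cells (SE 0.0455, adjusted p = 0.000614), while in knock-out cells it differed by 0.11 and was not called (adjusted p = 0.0511). Knock-out was above ΔTAD by 0.30 ± 0.0454 (adjusted p = 8.65e-06). Without ΔTAD replicate 1, the ΔTAD change was -0.27 and the difference between the edited genotypes 0.37. Of the other antizymes, Oaz2 rose in ΔTAD cells (log2 fold change 0.57, adjusted p = 9.86e-06) and differed by 0.29 in knock-out cells (adjusted p = 0.0143). Azin2, an antizyme inhibitor with little or no decarboxylase activity, rose in both, from 0.665 ± 0.271 CPM to 1.58 ± 0.393 and 2.05 ± 0.451.

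Per kilobase of exon, Odc1 stood at 144 CPM per kb for wild-type, 59.1 for knock-out and 37.1 for ΔTAD cells. Azin1 stood at 39.4, 42.4 and 34.4, and Oaz1 at 30.9, 35.1 and 35.5. The ratio of Odc1 to Oaz1 per length was thus 4.64 ± 0.102 for wild-type, 1.69 ± 0.0394 for knock-out and 1.05 ± 0.0183 for ΔTAD libraries (SD, n = 3). By summed exon length the order in wild-type cells was Odc1, Srm, Azin1, Oaz1, Sms, Sat1, and in both edited genotypes Srm (78.2 and 89.2 CPM per kb) stood above Odc1. In ΔTAD cells Odc1, Oaz1 and Azin1 were close, and the ratio of Azin1 to Oaz1 ranged from 0.897 to 1.03 and that of Odc1 to Azin1 from 0.996 to 1.18, so the order of Azin1 with either neighbour is within the spread. Taking the longest transcript as the length, Srm stood at 93.5 and Odc1 at 91.1 CPM per kb in knock-out cells, a gap that depends on the length used, and at 106.6 and 57.3 in ΔTAD cells. By that length the ratio of Odc1 to Oaz1 was 7.07, 2.57 and 1.60, and Azin1 stood above Oaz1 in ΔTAD cells (44.2 against 35.9 CPM per kb).

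**Figure D4:**
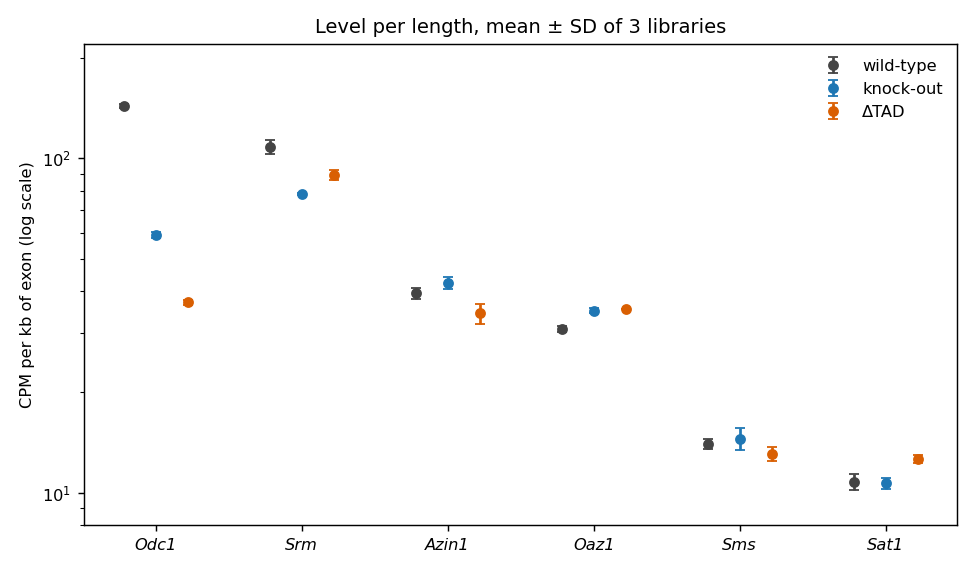
Level per length in CPM per kb of exon (vertical log axis) of the 6 genes with more than 10 CPM, as mean and SD of 3 libraries in wild-type (grey), knock-out (blue) and ΔTAD (orange) cells. Odc1 drops from 144 to 59.1 and 37.1, next to Oaz1 (35.5) and Azin1 (34.4) in ΔTAD cells, and by this summed exon length Srm is the highest in both edited genotypes (in knock-out cells the gap nearly closes with the longest transcript as length).

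Srm, which encodes spermidine synthase, fell in both genotypes. Its values were 181.5, 165 and 172 CPM for wild-type, 124, 125 and 126 for knock-out and 137, 145 and 146 for ΔTAD libraries. The 3 genotypes did not overlap, and here knock-out was the lowest. The log2 fold changes were -0.47 ± 0.0381 (adjusted p = 1.33e-10) and -0.28 ± 0.0377 (adjusted p = 7.29e-07). Knock-out and ΔTAD differed by -0.19 ± 0.0384 (adjusted p = 0.000278), a call lost with scaling by total count alone (-0.12, adjusted p = 0.144). Odc1 and Srm thus fell in both genotypes but in a different order, Odc1 being lowest in ΔTAD and Srm in knock-out cells.

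Sms, which encodes spermine synthase, had 81.4, 87.2 and 83.3 CPM for wild-type, 79.8, 92.3 and 89.0 for knock-out and 80.4, 81.05 and 74.0 for ΔTAD libraries. The knock-out libraries overlapped both other genotypes. Against wild-type the differences were 0.05 in knock-out (95% interval -0.0432 to 0.146, adjusted p = 0.364) and -0.10 in ΔTAD cells (-0.193 to -0.00300, adjusted p = 0.0701). Over the alternative settings described below, the ΔTAD change ranged from -0.19 with library size alone to -0.06 without ΔTAD replicate 3. The smallest adjusted p among them was under the threshold, so the lack of a ΔTAD call depends on the setting. The edited genotypes differed by 0.15 ± 0.0459, just short of the threshold (adjusted p = 0.01035). Without ΔTAD replicate 1 this difference was 0.19 (adjusted p = 0.00245). The ratio of Srm to Sms per length was 7.76 ± 0.626 for wild-type, 5.42 ± 0.3899 for knock-out and 6.85 ± 0.530 for ΔTAD cells. Pseudogenes, mostly Sms-ps on the same chromosome, took 23.2% to 24% of the counts of Sms and its 3 listed copies in each genotype.

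Sat1 encodes spermidine/spermine acetyltransferase, the enzyme that marks polyamines for export or oxidation. Its values were 27.9, 30.8 and 30.8 CPM for wild-type, 30.1, 30.2 and 28.3 for knock-out and 35.9, 35.0 and 34.0 for ΔTAD libraries. All 3 ΔTAD libraries were above the other 6, which overlapped. Sat1 rose in ΔTAD cells by 0.23 ± 0.0583 (adjusted p = 0.00157), differed by -0.01 in knock-out cells (adjusted p = 0.901), and was lower in knock-out than in ΔTAD cells by 0.24 (adjusted p = 0.00177). The ΔTAD call was lost with scaling by total count alone (0.14, adjusted p = 0.122) and without wild-type replicate 1 (0.18, adjusted p = 0.0177). The difference between the edited genotypes was lost with that scaling (-0.17, adjusted p = 0.0928) and without knock-out replicate 3 (-0.22, adjusted p = 0.0122). Without ΔTAD replicate 1 the ΔTAD change was 0.19 (adjusted p = 0.00986).

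The other 53 listed genes of arginine and polyamine metabolism, of which 38 were tested, gave 22 calls in knock-out cells (5 higher and 17 lower, where 22.8% and 22.4% of all genes were called higher and lower). In ΔTAD cells 19 were called, 8 higher and 11 lower, beside 26.3% and 23.4% of all genes. Their median log2 fold changes were -0.13 and -0.03. Between the edited genotypes 18 were called, 4 higher and 14 lower in knock-out cells, beside 13.9% and 19.1% of all genes.

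In polyamine oxidation, Smox, which encodes the oxidase that turns spermine directly back into spermidine, fell in both genotypes. It went from 10.6 ± 0.538 CPM in wild-type to 4.52 ± 0.178 in knock-out and 3.92 ± 0.436 in ΔTAD cells (log2 fold change -1.24 ± 0.111 and -1.42 ± 0.113). Sat2, named for its likeness to Sat1, rose in both (0.93 and 0.94), and Paox was not called. Among transporters, Atp13a3, a P5B-type ATPase of polyamine uptake, fell from 513 ± 16.4 to 379 ± 7.27 and 319 ± 14.4 CPM (-0.44 and -0.69). Its lysosomal relative Atp13a2, which exports polyamines to the cytosol, rose in ΔTAD cells (0.35, adjusted p = 3.96e-08) and was not called in knock-out cells (-0.09, adjusted p = 0.0463). The direct comparison placed Atp13a2 lower in knock-out than in ΔTAD cells by 0.44 and Atp13a3 higher by 0.25.

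Of the 3 tested genes that supply the aminopropyl donor, 2 fell in each genotype, where 22.4% of all genes fell in knock-out and 23.4% in ΔTAD cells. Mat2a, the methionine adenosyltransferase of these cells, fell from 349 ± 9.90 to 259 ± 1.96 and 233 ± 13.9 CPM (-0.43 and -0.59), and its partner Mat2b rose in ΔTAD cells (0.24). Amd1, the S-adenosylmethionine decarboxylase, fell in both (-0.31 and -0.17). Of the 5 methylthioadenosine salvage genes 4 fell in knock-out and 2 in ΔTAD cells, beside the same 22.4% and 23.4% of all genes, with Mtap at -0.33 and -0.17. Adi1, at -0.57 and -0.52, lies on chromosome 12 and was near that chromosome's median. In the hypusine route, which uses spermidine to modify eIF5A, Eif5a (-0.29 and -0.14) and Dhps (-0.49 and -0.54) fell in both genotypes and Dohh was not called in either.

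On the amino acid side, Prodh, which encodes proline dehydrogenase, separated the genotypes most. It had 2.94 ± 0.346 CPM for wild-type, 0.470 ± 0.113 for knock-out and 3.73 ± 0.470 for ΔTAD cells, a difference of -2.63 ± 0.261 in knock-out (adjusted p = 4.82e-09) against 0.35 in ΔTAD cells (adjusted p = 0.0817), and the edited genotypes differed by -2.98. All 3 ranges rest on few counts, with knock-out lowest. Gamt, the last enzyme of creatine synthesis, rose from 2.72 ± 0.483 to 5.36 ± 0.0820 and 8.31 ± 0.352 CPM (0.99 and 1.62). Gatm, the arginine-using step before it, fell by 0.12 in knock-out cells and was not called in ΔTAD cells. Ddah2, which degrades dimethylarginine, fell in ΔTAD cells (-0.95, adjusted p = 0.00173). The cytosolic arginine sensor Castor1 fell in both genotypes (-1.47 and -0.58) and Castor2 rose in both (0.47 and 0.30).

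**Figure D5:**
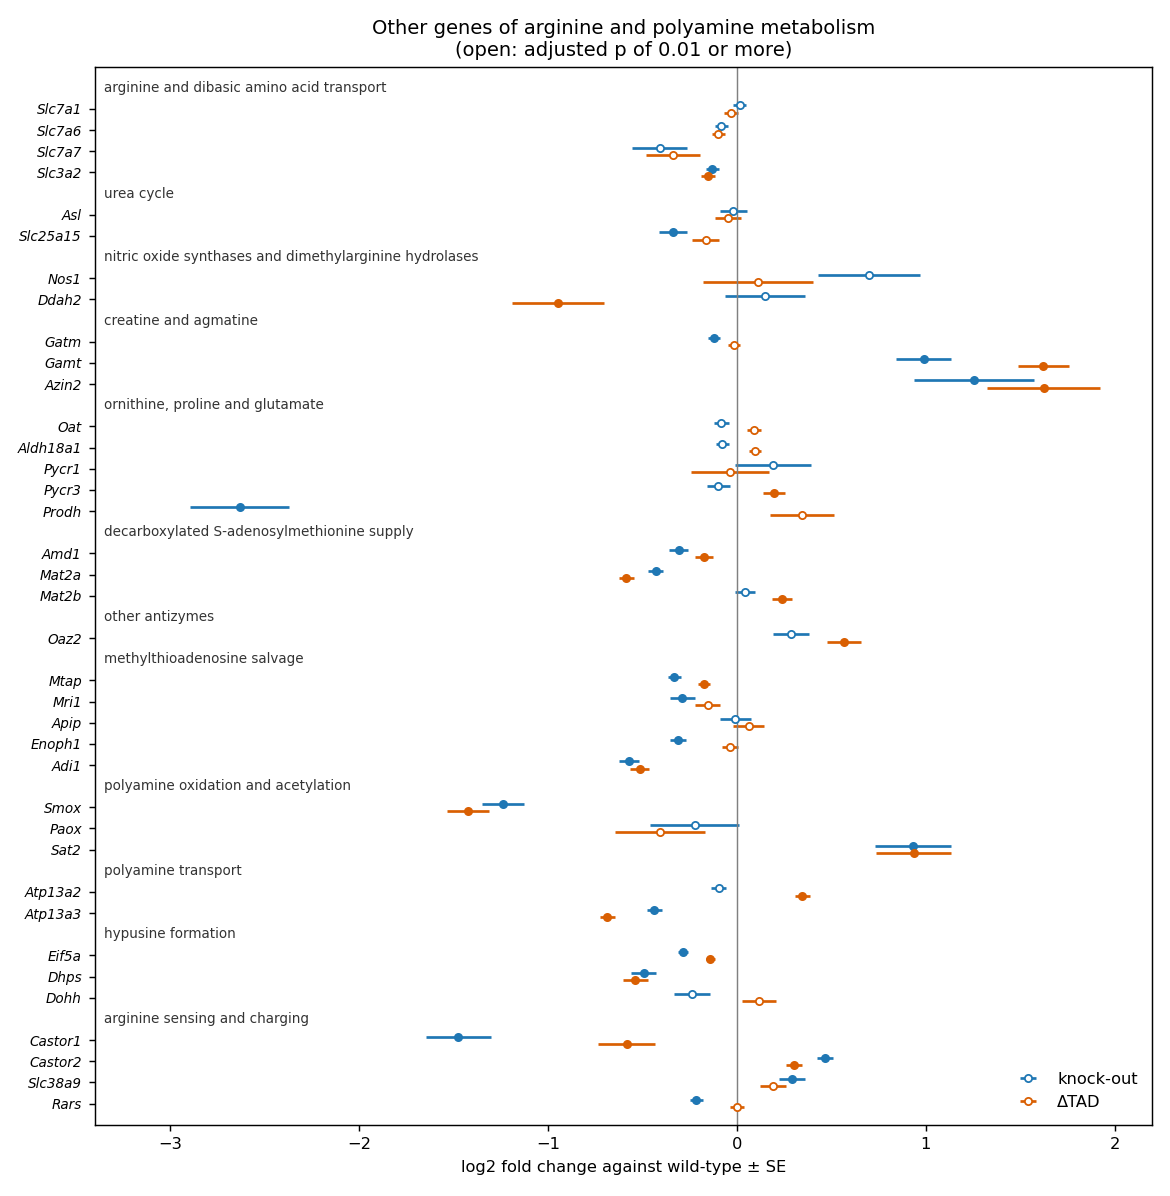
Log2 fold change against wild-type with SE (horizontal axis) of 37 of the 38 tested genes of the wider list, grouped by role, in knock-out (blue) and ΔTAD (orange) cells. Filled points have adjusted p under 0.01. Smox lies at -1.24 and -1.42, Gamt at 0.99 and 1.62, and Prodh at -2.63 in knock-out and 0.35 in ΔTAD cells.

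Of 7 transcription factors known to act on Arg1 or Odc1, 6 were tested, and Myc showed the largest change. Myc rose from 2.54 ± 0.397 CPM in wild-type to 26.9 ± 2.15 in knock-out and 24.02 ± 1.26 in ΔTAD cells, 10.5-fold and 9.39-fold (adjusted p = 3.13e-18 and 8.60e-18). Its paralog Mycn fell from 715 ± 25.1 to 355 ± 11.2 and 414 ± 7.01 CPM (-1.01 and -0.79), and their partner Max fell as well (-0.68 and -0.42). Mycn and Max lie on chromosome 12 too, where the median was -0.52 and -0.54. Klf4 rose in both genotypes (0.72 and 1.80) and Stat6 rose in ΔTAD cells (0.27). Cebpb, which encodes C/EBPβ, had 54.3 ± 2.89, 52.9 ± 2.93 and 50.2 ± 1.95 CPM and was not called, and Pparg had at most 5 counts in a library.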

How the data were processed

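RNA of unstimulated RAW264.7 cells was measured in 9 libraries, 3 for each genotype as the labels give it. The authors depleted ribosomal RNA (KAPA RNA Hyperprep with RiboErase), sequenced single reads and ran FastQC and Trimmomatic on them. HISAT2 placed the reads on GRCm38, and HTSeq assigned them to genes. The mode and strand setting of the counting are not given in the sources used here. The deposited values are raw counts for 55487 identifiers, of which 55227 matched a GENCODE symbol, plus tallies of reads not assigned to a gene, which stayed out of all totals (counts on genes were 46.65% to 53.23% of the records).

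Tests used edgeR 4.0.16 (R 4.3.3). A gene entered when filterByExpr kept it (10 counts at least, with a total of 15), libraries were scaled by TMM (factors 0.888 to 1.027), and 1 quasi-likelihood model was fitted to all 9 libraries, with Benjamini-Hochberg adjustment over 14312 genes and calls at 0.01, the threshold of the study. The study does not name its test. An SE was taken as the size of the fitted change over the root of its F statistic. The common biological coefficient of variation was 0.0468. Intervals of count ratios and limits of a count of 0 (3 counts) cover counting error only. Alternatives used DESeq2 1.42.0, limma 3.58.1 (voom), other scalings, filters and thresholds, a replicate block, and each library left out. Members, gene lists and tests were chosen with earlier results of these data known. Besides the 10 genes, the text names genes of the lists, Cebpd, genes that share sequence with a member, and the 3 genes most like a tested member, a rule set for the 2 members with the widest range of genotype means. Results for some genes that this rule or the lists name are not reported here.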

Additional observations from a re-analysis of the deposited data

Results flagged for a closer look

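For 4 of the 8 genes tested, the effects of the edited genotypes differed by their direct comparison in edgeR, beside 33.0% of all genes. Odc1 was higher in knock-out than in ΔTAD cells by 0.67 on the log2 scale and Azin1 by 0.30, while Srm differed by -0.19 and Sat1 by -0.24. For Odc1 and Srm both genotypes lay below wild-type. For Azin1 the knock-out libraries overlapped wild-type and the ΔTAD libraries lay below it, and for Sat1 the knock-out libraries overlapped wild-type and the ΔTAD libraries lay above it. The 4 calls held without ΔTAD replicate 1. With library size alone as the scaling, those of Srm and Sat1 were lost, and that of Sat1 was also lost without knock-out replicate 3.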

How the results depend on the processing

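Of 448 member log2 fold changes under an alternative, 420 kept their direction and their side of the threshold, 7 lost the call, 13 gained it and 8 changed sign. All 8 sign changes were of differences that were not called: Sat1 in knock-out against wild-type (0.000407 with TMM without the genes of chromosomes 12 and 17, and -0.0530 to 0.0224 with 1 library left out, above 0 without wild-type replicate 2, wild-type replicate 3 at 0.0121 or knock-out replicate 3 at 0.0120), Ass1 in knock-out against ΔTAD (-3.52 to 0.33 with 1 library left out, above 0 without ΔTAD replicate 2) and Oaz1 in knock-out against ΔTAD (0.0558 with library size alone, 0.0102 with only these genotypes and -0.0254 to 0.00835 with 1 library left out, above 0 without ΔTAD replicate 1). The count of members called fell to 3 in knock-out against wild-type with at least 10 counts in every library, a filter that removes Arg2 and Ass1. Where calls also had to reach a log2 change of 1 in size it was 3, 3 and 0 in the 3 comparisons, and the other 53 genes of the wider list then gave 4, 3 and 2 calls. With library size alone the wider list gave 10 calls between knock-out and ΔTAD, where all genes gave 3305, against 4730 with TMM. With the longest transcript as length, 17 of 24 levels per kb moved by more than the replicate SD. Scaling by library size alone moved the median of all genes by -0.09 in ΔTAD against wild-type. Leaving out 1 library at a time gave 5 members called in knock-out, 6 to 7 in ΔTAD and 3 to 5 between them, and 19 to 22, 17 to 19 and 15 to 19 genes of the wider list. The replicate numbers pair nothing (correlations of same-numbered deviations -0.0717 to 0.02), and with a replicate block 5, 7 and 5 members and 22, 19 and 18 genes of the wider list were called. The gene added between knock-out and ΔTAD was Sms (0.15, adjusted p = 0.00639), which was also called under 11 other alternatives. Genes under 2 CPM, such as Arg2 and Ass1, are limited by depth.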
